A study of Mus musculus with 6 samples.

Results

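DNA replication genes were followed in pro-B cells, the bone marrow precursors that rearrange the immunoglobulin heavy chain gene, with and without the RNA helicase gene Skiv2l. The 33 genes were chosen by name as parts of the replication machinery, and each name stood on 1 of the 54752 gene identifiers in every table. Messenger RNA came from pro-B cells sorted by flow cytometry from adult C57BL/6 bone marrow. There were 3 mice of genotype Skiv2lfl/fl-Cd79a-Cre (called Skiv2l-deleted) and 3 of genotype Skiv2lfl/fl (control), each giving 1 library, and no Cre is named for the latter. All 6 mice therefore carried floxed Skiv2l, and the deletion cannot be told apart from the presence of Cre. Cd79a-Cre is active in the B lineage, and the labels do not name the surface markers of the sort.

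Replication starts when the origin recognition complex, Cdc6 and Cdt1 load the ring-shaped MCM helicase on DNA in G1, a step called licensing. In S phase, Cdc45 and the GINS complex turn the ring into an active helicase. Polymerases copy the strands with the sliding clamp PCNA, and the clamp loader RFC places that clamp. Many genes of this machinery are transcribed under E2F factors late in G1, and pro-B cells are a stage of B cell development with active division.

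Libraries held 1.74 to 2.40 Gb of aligned bases. The floxed part of Skiv2l is not given, so its level is a partial check of the labels. It measured 25.4, 20.2 and 46.3 FPKM (fragments scaled to transcript length and library size) in control mice against 9.53, 16.1 and 10.9 in Skiv2l-deleted mice. The groups did not overlap, and the difference missed the threshold (log2 fold change -1.21 ± 0.32 SE, limma adjusted p = 0.063). All 15 pro-B markers listed passed the expression filter. Myeloid RNA differed within the groups: Mpo, the neutrophil enzyme myeloperoxidase, measured 8.99, 6.79 and 343 FPKM in control mice against 6.53, 641 and 4.3 in Skiv2l-deleted mice. Control 3 and Skiv2l-deleted 2 were the high libraries for Mpo. For S100a9, a neutrophil calcium-binding protein, the values were 1.5, 217.5 and 177.2 FPKM against 165, 242.9 and 1.98, so control 2 and Skiv2l-deleted 1 were high there too. The 6 myeloid markers summed to 122.9, 399.9 and 1255 FPKM in control mice against 321.1, 2229 and 75.6. The 7 erythroid markers summed to at most 8.37 FPKM in 5 libraries and to 202.3 in Skiv2l-deleted 2. Results are given with and without control 3 and Skiv2l-deleted 2, the highest of each group in the myeloid sum, and the 4 libraries that remain are not free of myeloid RNA. Sums of other marker lists moved with the genotype. The 15 pro-B markers summed to between 3162 and 4330 FPKM in controls and between 4823 and 6011 in Skiv2l-deleted libraries. Of these 15, 8 were higher and 1, Cd79a, lower at a limma adjusted p below 0.05 (4.97% and 3.87% of all genes tested). Cd79a, the gene the Cre is named for, measured 725.6, 640 and 739.2 FPKM in control against 366.8, 367.9 and 441 in Skiv2l-deleted mice. Its log2 fold change was -0.84 ± 0.12 SE (limma adjusted p = 0.0123). The 9 markers of later B cell stages summed to between 375 and 454 against between 151 and 210. Of the 8 of them that were tested, 7 were lower and 0 higher at that threshold (3.87% and 4.97% of all genes tested). The 5 plasma cell markers summed to between 271 and 528 against between 54.9 and 83.9. Of those 5, 3 were lower, and Xbp1, not called, averaged 42.9 FPKM in controls and 54.4 in Skiv2l-deleted libraries. The part of these lists in the results below was not tested. Markers of T and NK cells summed to at most 14.1 FPKM in any library, with the NK receptor gene Klrb1c higher in the Skiv2l-deleted group, and all 4 megakaryocyte and all 4 stromal markers stayed under 1 FPKM, the leptin receptor gene Lepr at 0 in all 6 libraries.

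Of the 33 replication genes, all passed the expression filter, 8 fell and 0 rose in Skiv2l-deleted cells (limma, adjusted p below 0.05 over 13539 genes). Among all genes tested, 3.87% fell and 4.97% rose, 8.84% in either direction. The 8 were Rrm2, Gins3, Rfc4, Slbp, Rfc3, Mcm10, Mcm7 and Rfc5, and their means were 25.6% to 40.6% lower. At an unadjusted limma p under 0.05 the counts were 22 lower (9.85% of all genes tested) and 1 higher (15.7% of all genes), the latter being the thymidylate synthase gene Tyms. The log2 fold change, always Skiv2l-deleted minus control of log2(FPKM + 1), was below 0 for 30 of the 33 and had a median of -0.37. Over all genes tested it was below 0 for 42.2% and had a median of 0.06. Every Skiv2l-deleted library lay under every control in 22 of the 33 genes (12.3% of all genes tested) and over every control in 1 (19.9% of all genes). In bulk RNA a smaller share of cells in S phase and less of each message per cell cannot be told apart.

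**Figure D1:**
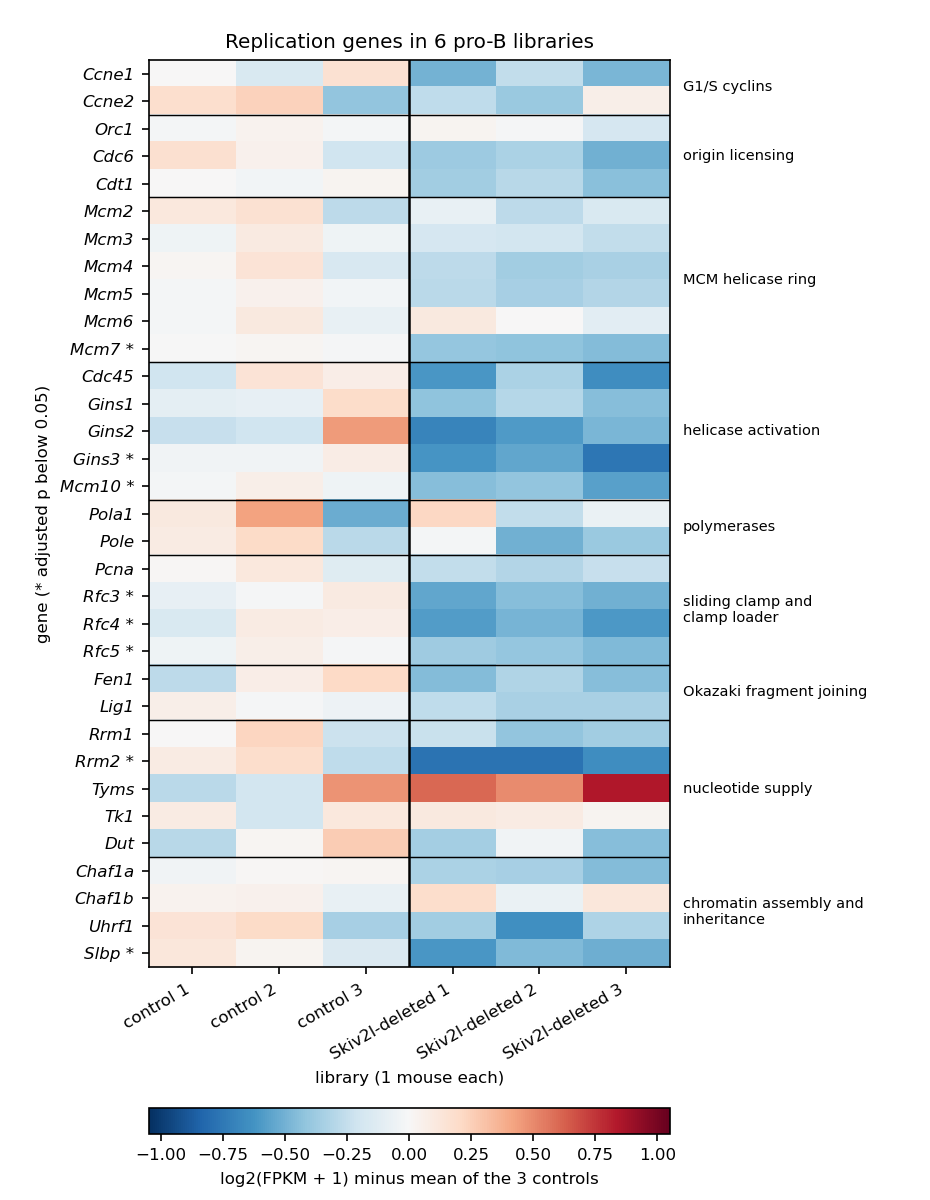
Difference of log2(FPKM + 1) from the mean of the 3 controls for each of the 33 replication genes (rows, grouped by role) in each of the 6 libraries (columns). Blue is lower and red higher, and an asterisk marks the 8 genes that fell. The right-hand 3 columns are mostly blue, and Tyms is red in all 3.

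The summed FPKM of the 33 genes made up 0.68%, 0.72% and 0.582% of all FPKM in the controls and 0.544%, 0.489% and 0.529% in the Skiv2l-deleted libraries. The groups did not overlap, and control 3 was the nearest to the Skiv2l-deleted values. Control means of single genes ran from 7.74 FPKM for Orc1 to 470.1 FPKM for Pcna, with a median of 69.6. The genes lie on 13 chromosomes. Mean coverage ran from 9.51 to 595 reads per base over genes and libraries.

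The calls rested on all 6 libraries to different degrees. Without control 3, all 8 genes were called again, and the count of lower genes was 12 (5.47% of all genes tested were lower in that fit) with 1 higher, Tyms (7.65% of all genes). Without control 3 and Skiv2l-deleted 2 together, the 8 were again called among 11 lower genes (background 5.73%), with Tyms higher (background 7.3%). The count was 0 without control 2, Skiv2l-deleted 1 or Skiv2l-deleted 3, where 1.76%, 0.851% and 0.875% of all genes were lower. It was 1 without control 1 (Rfc4, background 1.28%) and 1 without Skiv2l-deleted 2 (Gins3, background 2.32%), shares near those of all genes. The median over the 33 genes stayed between -0.39 and -0.33 in the 6 omissions.

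**Figure D2:**
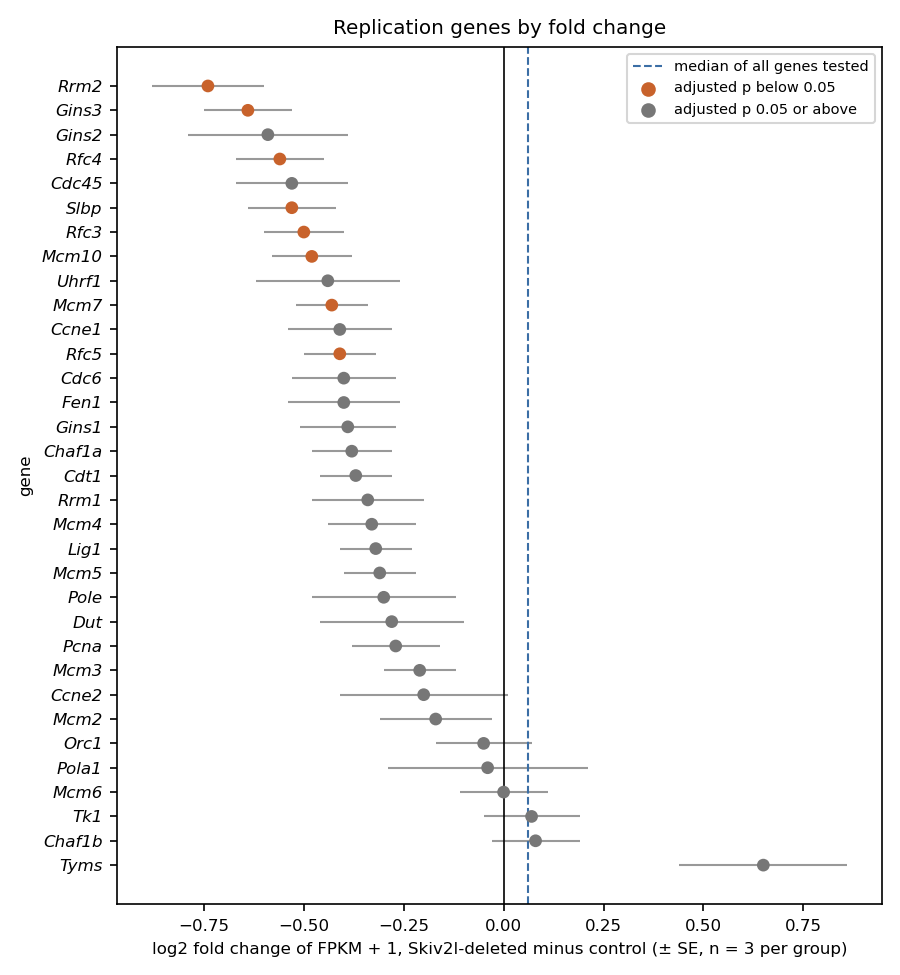
Log2 fold change of each replication gene (Skiv2l-deleted minus control, on the log2(FPKM + 1) scale) with its standard error from limma, n = 3 per group. Orange points are the 8 genes with an adjusted p below 0.05, grey points the others, and the dashed line is the median of all genes tested (0.06). Rrm2 lies at -0.74 and Tyms, not called, at 0.65.

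The G1/S cyclins activate CDK2 at entry into S phase. Ccne1, cyclin E1, measured 30.4, 26.9 and 33.9 FPKM in control mice against 21.2, 25.1 and 21.5 in Skiv2l-deleted mice. The groups did not overlap, but the difference was not called (log2 fold change -0.41 ± 0.13 SE, adjusted p = 0.0973). Ccne2, cyclin E2, overlapped between groups, with control 3 at 19.4 FPKM beneath all 3 Skiv2l-deleted libraries. Its locus shares 5622 bases with Ints8 on the other strand, and how the authors' counting treated strand is unknown here.

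None of the 3 licensing genes was called. Cdt1, which brings the MCM ring to origins, measured 60.2, 59.1 and 61.3 FPKM in control mice against 46.4, 49.1 and 44.1 in Skiv2l-deleted mice (log2 fold change -0.37 ± 0.09, adjusted p = 0.058). The spread within each group was small beside the gap between them. Without control 3 and Skiv2l-deleted 2 it was called (-0.39, adjusted p = 0.045), and without control 3 alone it was not (-0.35, adjusted p = 0.0559). Cdc6, the loading ATPase, gave -0.40 ± 0.13 (adjusted p = 0.112), and it too was called in those 4 libraries (-0.55, adjusted p = 0.0368). Orc1, the largest subunit of the origin recognition complex, was the lowest of the 33 in level, at 7.74 ± 0.204 FPKM (SD, n = 3) in control mice against 7.44 ± 0.633 after deletion.

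The MCM ring is a hexamer of Mcm2, Mcm3, Mcm4, Mcm5, Mcm6 and Mcm7. Of these 6 genes, 1 fell (3.87% of all genes tested). In 4 of the 6 (Mcm3, Mcm4, Mcm5 and Mcm7) every Skiv2l-deleted library lay under every control (12.3% of all genes tested). Mcm7 measured 210.1, 214 and 209.5 FPKM in control mice against 159, 158 and 154 in Skiv2l-deleted mice, and it fell (log2 fold change -0.43 ± 0.09, adjusted p = 0.0306). All 3 Skiv2l-deleted values lay well beneath all 3 controls. Mcm6 (given in full after its values were seen) measured 183, 199 and 177 FPKM against 199, 186 and 172, so the groups overlapped. The level of Mcm7 relative to Mcm6 was 1.15, 1.07 and 1.19 in the controls and 0.797, 0.846 and 0.896 in the Skiv2l-deleted libraries. Mcm7 was thus the more abundant of the pair in each control and the less abundant in each Skiv2l-deleted library. The level of Mcm5 relative to Mcm6 was 0.906, 0.87 and 0.932 in the controls and 0.691, 0.705 and 0.789 in the Skiv2l-deleted libraries. Both ratios were chosen after the values were seen and have no test. Mcm5 (-0.31, adjusted p = 0.0763), Mcm4 (-0.33, 0.125), Mcm3 (-0.21, 0.221) and Mcm2 (-0.17, limma adjusted p = 0.512) were not called. Mcm4 was called in 1 of 16 alternatives, without control 3 (-0.41, adjusted p = 0.0379), and not without control 3 and Skiv2l-deleted 2 (-0.39, adjusted p = 0.0522). The Mcm7 locus shares 421 bases with Ap4m1 and 64 with Cops6 on the other strand. Ap4m1 averaged 29.6 FPKM in control and 19.6 in Skiv2l-deleted mice, and Cops6 70.2 and 74.8.

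**Figure D3:**
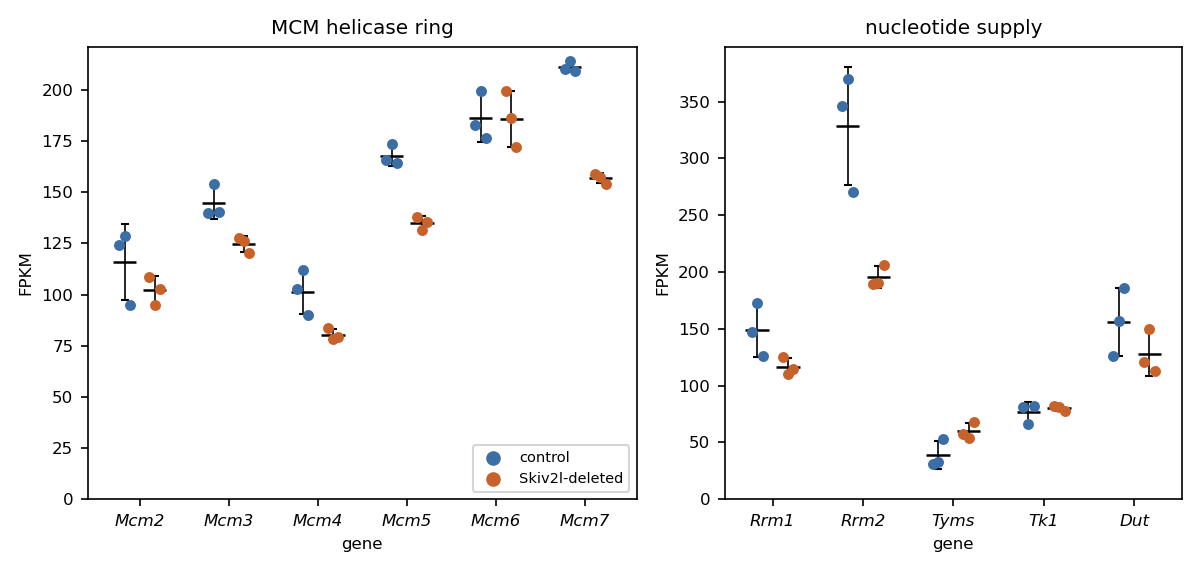
FPKM of the 6 MCM ring genes (left) and the 5 nucleotide supply genes (right) in each library, control in blue and Skiv2l-deleted in orange. Points are libraries, black bars are means, and error bars are SD (n = 3). Mcm3, Mcm4, Mcm5, Mcm7, Rrm1 and Rrm2 are separated between groups with lower Skiv2l-deleted values, and of these Mcm7 and Rrm2 were called. Mcm2, Mcm6, Tk1 and Dut overlap, and Tyms is separated with higher Skiv2l-deleted values.

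Every gene of helicase activation had Skiv2l-deleted libraries beneath all controls (12.3% of all genes tested), and 2 of the 5 fell (3.87% of all genes). Gins3, a subunit of the GINS complex, measured 15.9, 15.8 and 17.3 FPKM in control mice against 10.3, 10.8 and 9.24 in Skiv2l-deleted mice. Its fall was called (log2 fold change -0.64 ± 0.11, adjusted p = 0.0207). Mcm10, which helps to activate the helicase, measured 34.1, 36.1 and 33.4 FPKM against 25.0, 25.7 and 22.9 (-0.48 ± 0.10, adjusted p = 0.0328). Both genes varied little within a group. Cdc45, the partner of MCM and GINS, measured 53.6, 68.8 and 65.3 FPKM in control mice against 40.3, 49.3 and 39.1 in Skiv2l-deleted mice. It was not called (-0.53 ± 0.14, adjusted p = 0.0652). Gins2 measured 26.1, 26.8 and 42.6 FPKM against 18.8, 20.2 and 22.0 (-0.59 ± 0.20, adjusted p = 0.117). Control 3 was far above the other controls for Gins2, and the fold change without control 3 was -0.37. Gins1 gave -0.39 ± 0.12 (adjusted p = 0.0952). Gins4, which completes the complex and was named after its values were seen, gave -0.09 ± 0.14 (adjusted p = 0.76).

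Neither of the 2 polymerase genes of the set was called, and both overlapped between groups. Pola1, the catalytic subunit of the priming polymerase alpha, measured 28.4, 35.8 and 18.1 FPKM in control mice against 30.9, 22.0 and 25.2 in Skiv2l-deleted mice (log2 fold change -0.04 ± 0.25, adjusted p = 0.953). The controls alone spanned a wider range than the Skiv2l-deleted libraries, with control 3 the lowest of all 6. Without control 3 the value was -0.30, also not called (adjusted p = 0.299). Pole, the catalytic subunit of the leading-strand polymerase epsilon, gave -0.30 ± 0.18 (adjusted p = 0.353). Of 10 further polymerase and primase genes in the wider list, 2 fell and 0 rose (3.87% and 4.97% of all genes tested). At an unadjusted limma p under 0.05, 6 were lower and 0 higher (9.85% and 15.7% of all genes). The 2 that fell were Pold1, the catalytic subunit of polymerase delta, with 156.7, 160.3 and 166.8 FPKM in control mice against 125.3, 115.4 and 121.1 (-0.42 ± 0.09, adjusted p = 0.038), and its partner Pold3 (-0.47 ± 0.11, adjusted p = 0.0435).

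All 3 clamp loader genes of the set fell (3.87% of all genes tested), while the clamp gene itself was not called. Rfc4 measured 64.4, 76.5 and 75.4 FPKM in control mice against 47.4, 50.9 and 47.1 in Skiv2l-deleted mice (log2 fold change -0.56 ± 0.11, adjusted p = 0.0256). Rfc3 measured 65.3, 69.1 and 74.5 FPKM against 47.4, 50.7 and 48.6 (-0.50 ± 0.10, adjusted p = 0.0273). Rfc5 measured 38.9, 41.8 and 39.7 FPKM against 30.8, 30.1 and 28.8 (-0.41 ± 0.09, adjusted p = 0.0423). In each of the 3 genes the highest Skiv2l-deleted library was well under the lowest control. The other RFC subunits, from the wider list, were not called: Rfc2 gave -0.37 ± 0.14 (adjusted p = 0.157) and Rfc1, the large subunit, -0.11 ± 0.13 (adjusted p = 0.671). Pcna, the sliding clamp and the highest of the 33 in level, measured 472, 507 and 430.3 FPKM in control mice against 392, 378 and 397 in Skiv2l-deleted mice (-0.27 ± 0.11, adjusted p = 0.169). Those groups did not overlap. The copy Pcna-ps2, between which and Pcna reads can be split, was listed at 101, 116 and 123 FPKM against 86.5, 92.4 and 84.9. The sum of both was 574, 623 and 553 FPKM in the controls and 478, 470.1 and 482 in the Skiv2l-deleted libraries, so the separation was present in the sum as well. Rfc4 shares 194 bases with the abundant Eif4a2 on the other strand, and Rfc5 shares 499 with Wsb2. More of the 33 loci overlap a gene on the other strand, among them Gins2 with Gse1 (2758 bases), Chaf1a with Ubxn6 (5245) and Lig1 with Zswim9 (1439).

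Fen1, the flap nuclease, and Lig1, DNA ligase 1, finish the lagging strand. Lig1 measured 129.6, 123 and 119.8 FPKM in control mice against 103, 97.7 and 97.6 in Skiv2l-deleted mice (log2 fold change -0.32 ± 0.09, adjusted p = 0.0777). Fen1 gave -0.40 ± 0.14 (adjusted p = 0.135). Neither was called, though in both the Skiv2l-deleted libraries lay beneath all controls (12.3% of all genes tested).

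Of the 5 genes of nucleotide supply, 1 fell and 0 rose (3.87% and 4.97% of all genes tested). Rrm2, the small subunit of ribonucleotide reductase that limits the enzyme in S phase, measured 346, 369.7 and 271 FPKM in control mice against 189.7, 190.0 and 206.5 in Skiv2l-deleted mice. It had the largest fall of the 33 (log2 fold change -0.74 ± 0.14, adjusted p = 0.024). Rrm1, the large subunit, gave -0.34 ± 0.14 (adjusted p = 0.183), and it was called without control 3 (-0.45, adjusted p = 0.0498) but not without control 3 and Skiv2l-deleted 2 (-0.41, adjusted p = 0.0744). The level of Rrm2 relative to Rrm1 was 2.34, 2.14 and 2.15 in the controls and 1.52, 1.72 and 1.80 in the Skiv2l-deleted libraries, and this untested ratio was picked with the values in view. Tyms, which makes thymidylate, measured 30.8, 32.9 and 52.8 FPKM in control mice against 57.7, 53.6 and 68.2 in Skiv2l-deleted mice. All 3 Skiv2l-deleted values were higher than all controls, although control 3 came within a narrow gap of Skiv2l-deleted 2. The difference was not called in all 6 libraries (0.65 ± 0.21, adjusted p = 0.114). It was called without control 3 (0.88, adjusted p = 0.0129) and without control 3 and Skiv2l-deleted 2 (0.96, adjusted p = 0.0134). The copy Tyms-ps was listed at no more than 2.19 FPKM in any library. Tk1, thymidine kinase of the salvage route to the same product, measured 80.7, 66.2 and 82.1 FPKM against 81.6, 80.7 and 77.4, with overlapping groups (0.07 ± 0.12, adjusted p = 0.763). Dut, which removes dUTP, gave -0.28 ± 0.18 (adjusted p = 0.38).

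In chromatin assembly and inheritance, Slbp fell. Slbp encodes the protein that binds the stem-loop of histone messages, and it measured 160.1, 151 and 132 FPKM in control mice against 95.8, 107 and 103 in Skiv2l-deleted mice (log2 fold change -0.53 ± 0.11, adjusted p = 0.032). The groups were clearly apart. Uhrf1, which maintains DNA methylation at the fork, measured 292, 305 and 208 FPKM against 206, 169 and 212. Control 3 was lower than Skiv2l-deleted 3, so the groups overlapped (-0.44 ± 0.18, adjusted p = 0.172). Uhrf1 was called without control 3 (-0.62, adjusted p = 0.0313) and without control 3 and Skiv2l-deleted 2 (-0.51, adjusted p = 0.023). Chaf1a and Chaf1b, the large and middle subunits of the histone chaperone CAF-1, were not called. Chaf1a gave -0.38 ± 0.10 (adjusted p = 0.056) with no overlap between groups. Chaf1b measured 38.4, 38.7 and 35.4 FPKM in control mice against 42.8, 35.7 and 40.8 in Skiv2l-deleted mice (0.08 ± 0.11, adjusted p = 0.721). The level of Chaf1a relative to Chaf1b was 0.901, 0.93 and 1.02 in the controls and 0.657, 0.776 and 0.63 in the Skiv2l-deleted libraries, likewise without a test.

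Promoter sequence was read for the 28 of the 33 genes that matched the RefSeq promoter table (GRCm38.p6). Ccne2, Mcm4, Gins1, Gins2 and Pole were not matched. Each window ran from 250 bases before to 50 after a start site and was searched on both strands for the E2F-type letters TTTCCCGC, TTTGGCGC, TTTCGCGC and TTTGCCGC, counting matches that overlap each other. At least 1 match was found for 12 of the 28 genes (42.9%), against 2.6% of all 27025 genes with an entry. By window, 12 of the 33 windows of these 28 genes had a match (36.4%), against 2.26% of all 32851 windows. Of the 8 genes that fell, 3 had a match (Mcm7, Gins3 and Rfc3), and of the 20 others with a window, 9 did. The 250 bases before the start are shown for 4 genes to set a ring subunit that fell, a ring subunit that was not called, a helicase activation gene that fell and the gene with higher values beside each other. E2F-type matches are in capitals. Mcm7 has 2 windows. The window shown (chr5:138171884-138172133, minus strand) has a match that begins 165 bases before the start, besides 1 that begins 16 bases after it. The other Mcm7 window, at a second start site, has 0 matches. Mcm6 (chr1:128359706-128359955, minus strand) has 3, of which the first 2 overlap. Gins3 (chr8:95633309-95633558, plus strand) has a match 41 bases before the start, and Tyms (chr5:30073626-30073875, minus strand) has none in these letters.
Mcm7: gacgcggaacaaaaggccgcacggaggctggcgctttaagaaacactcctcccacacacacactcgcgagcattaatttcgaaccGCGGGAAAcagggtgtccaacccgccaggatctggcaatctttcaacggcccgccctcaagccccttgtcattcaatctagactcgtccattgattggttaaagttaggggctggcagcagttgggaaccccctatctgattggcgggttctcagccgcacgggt
Mcm6: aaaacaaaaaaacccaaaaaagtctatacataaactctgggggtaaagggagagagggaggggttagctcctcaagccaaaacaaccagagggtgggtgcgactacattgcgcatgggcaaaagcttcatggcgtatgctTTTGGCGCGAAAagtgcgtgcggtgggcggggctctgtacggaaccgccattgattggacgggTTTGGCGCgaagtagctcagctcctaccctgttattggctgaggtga
Gins3: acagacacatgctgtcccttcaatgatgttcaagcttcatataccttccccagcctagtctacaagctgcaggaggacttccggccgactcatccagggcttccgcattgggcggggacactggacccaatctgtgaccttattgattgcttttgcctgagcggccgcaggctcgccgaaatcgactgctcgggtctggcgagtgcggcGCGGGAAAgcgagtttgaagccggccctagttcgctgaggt
Tyms: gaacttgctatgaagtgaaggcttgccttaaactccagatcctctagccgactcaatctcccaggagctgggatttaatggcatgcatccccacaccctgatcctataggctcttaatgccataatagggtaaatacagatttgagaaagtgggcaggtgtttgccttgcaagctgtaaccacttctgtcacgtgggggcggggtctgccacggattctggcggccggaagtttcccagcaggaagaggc
In the windows shown, the ring subunit that fell and the one whose groups overlapped both carry the letters. A match describes the sequence and does not show that a factor binds there.

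Further genes of replication, from a list of 62 that does not hold the 33, are given for comparison. Of these, all 62 were tested, 15 fell and 0 rose, against 3.87% and 4.97% of all genes tested. At an unadjusted limma p under 0.05, 28 were lower and 0 higher, against 9.85% and 15.7% of all genes. The median log2 fold change of the 62 was -0.29. The largest called falls were in Cdc7, the kinase that fires origins, with 37.7 ± 7.75 FPKM in control against 19.5 ± 2.89 in Skiv2l-deleted mice (SD, n = 3) and a log2 fold change of -0.90, Top2a, topoisomerase II alpha (-0.79), and Ccna2, cyclin A2 (-0.78). Dbf4, which activates the Cdc7 kinase, fell as well (-0.56, adjusted p = 0.0262). The fork protection genes Clspn (-0.63), Timeless (-0.60), Wdhd1 (-0.58) and Tipin (-0.41) fell, as did Chtf18 of the alternative clamp loader (-0.68) and Rpa3 of the single-strand binding complex (-0.62). Of the 5 further origin recognition complex subunits, 1 fell (Orc5, -0.44, adjusted p = 0.0475), and of 7 further nucleotide supply genes, 0 were called in either direction (1 lower at an unadjusted limma p under 0.05). The count of lower genes in this list was 0 without Skiv2l-deleted 1 or Skiv2l-deleted 3 (0.851% and 0.875% of all genes were lower). It was 1 without control 1 (1.28%), 3 without control 2 or Skiv2l-deleted 2 (1.76% and 2.32%), and 16 without control 3 (5.47%).

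**Figure D4:**
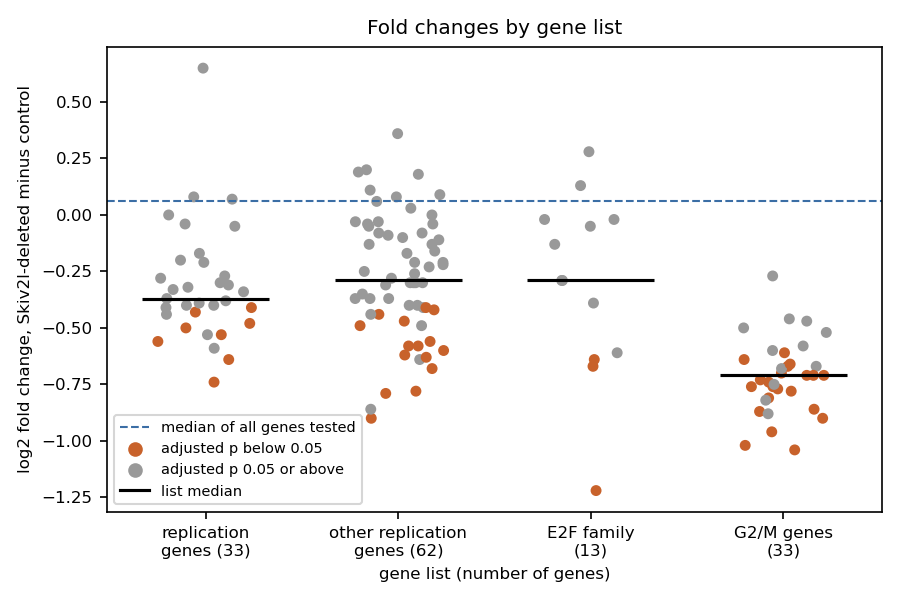
Log2 fold change (Skiv2l-deleted minus control) of each gene in 4 lists, with orange points for an adjusted p below 0.05, black lines for list medians and a dashed line for the median of all genes tested. The medians are -0.37 for the replication genes, -0.29 for the other replication genes, -0.29 for the E2F family and -0.71 for G2/M genes.

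The E2F factors and the genes of mitosis are set beside these values without a test between lists. Among all genes tested, 3.87% fell and 4.97% rose. At an unadjusted limma p under 0.05, 9.85% of all genes were lower and 15.7% higher. Of 13 E2F and partner genes, 3 fell and 0 rose (4 lower and 1 higher at an unadjusted limma p under 0.05): E2f2 (-1.22), the activator E2f1 (-0.67) and the repressor E2f7 (-0.64). E2f1 measured 32.3, 25.2 and 32.3 FPKM in control mice against 17.2, 19.9 and 17.7 in Skiv2l-deleted mice. Of 33 G2/M genes, 21 fell and 0 rose (limma, 31 lower and 0 higher at an unadjusted p under 0.05), with a median of -0.71, against 8 of 33 and -0.37 for the replication genes. Without 1 library the G2/M count ran from 3 (without Skiv2l-deleted 1 or Skiv2l-deleted 3) through 13 (without Skiv2l-deleted 2) to 28 (without control 3). The E2F count was 1 without control 1 or any 1 Skiv2l-deleted library, 2 without control 2 and 6 without control 3. Without controls 1, 2 and 3 in turn, 1.28%, 1.76% and 5.47% of all genes were lower. Without Skiv2l-deleted 1, 2 and 3 in turn, the shares were 0.851%, 2.32% and 0.875%. The smallest difference among the G2/M genes was -0.27, while the replication genes ran from -0.74 to 0.65. E2F-type letters were found for 1 of 28 G2/M genes with a promoter entry (3.57%) and for 5 of 10 E2F family genes. Among all 27025 genes with an entry the share was 2.6%, near that of the G2/M genes.

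Without control 3 and Skiv2l-deleted 2, the highest of each group in myeloid RNA, the 8 genes kept their direction. Rrm2 was at -0.85, Slbp at -0.64, Gins3 at -0.65, Rfc4 at -0.56, Rfc3 at -0.48, Mcm10 at -0.53, Mcm7 at -0.44 and Rfc5 at -0.43 in the 4 remaining libraries, each called. Gins2 moved from -0.59 to -0.36 and Pola1 from -0.04 to -0.19, neither called.

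**Figure D5:**
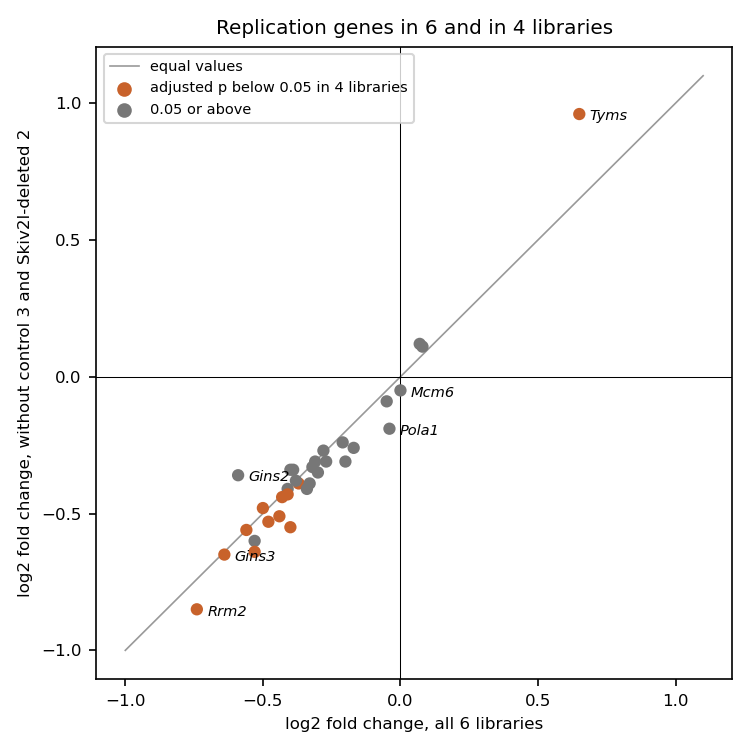
Log2 fold change of the 33 replication genes in all 6 libraries (horizontal axis) and without control 3 and Skiv2l-deleted 2 (vertical axis). Orange points have an adjusted p below 0.05 in the 4 libraries, and the grey diagonal marks equal values. Most points lie near the diagonal, Gins2 lies above it (-0.59 and -0.36), and Tyms is at 0.65 and 0.96.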

How the data were processed

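Messenger RNA of sorted pro-B cells was measured in strand-specific libraries, per the labels' protocols, with GRCm38 as genome build, as the submitters' processing notes give it. No source read here names the aligner, the counting tool or its use of strand. The authors deposited 1 table per mouse with FPKM, TPM and mean coverage per gene, per the file headers. Where an identifier had more than 1 line (7 to 9 per table), its lines were added up. The tables hold no counts, so no count model was used. The depth in bases was computed from the ratio of coverage to FPKM in single-transcript genes.

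The groups were compared in limma 3.58.1 (R 4.3.3), using eBayes with its trend option on log2(FPKM + 1). The 13539 genes tested reached 1 FPKM in 3 or more libraries. P-values are two-sided with Benjamini-Hochberg adjustment over all genes tested and were called below 0.05. The scale understates the change of low genes. The fit was also run on simulated data in which each gene varied independently. Those data held no myeloid RNA that differs between libraries, so that run does not cover this feature. Replicate numbers were not used to pair mice. The members, lists and alternatives, among them the omission of control 3 with Skiv2l-deleted 2, were chosen with earlier results of these data known. Values in every library were given for called genes, the highest gene of each role, genes above 0 and the 4 largest uncalled falls. From the other lists, at most 8 called genes with the largest changes were to be named, and Dbf4, Tipin, Orc5, Pold1, Pold3, Gins4, Rfc1 and Rfc2 were added after their values were seen.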

Additional observations from a re-analysis of the deposited data

How the results depend on the processing

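The direction of the 8 called genes did not change under the 16 alternatives run, and the median over the 33 genes stayed between -0.41 and -0.33. The number of calls did change. Without a filter on low values, 512 of 28354 genes were called in either direction, and 5 of the 33 and 2 of the 62 other replication genes were lower (0.818% of all genes). With TPM 5 of the 33 were lower (3.12% of all genes), and after quantile normalization 5 (4.44%). Leaving out 1 library gave 179 to 1749 called genes in all, 0 to 12 lower and 0 to 1 higher among the 33, and 0 to 16 lower among the 62. In those fits the share of all genes that were lower ran from 0.851% to 5.47%. Without control 3 and Skiv2l-deleted 2 together, 1 of the 33 was higher, Tyms. The cause was not tested. Uncalled values near 0 changed sign: Mcm6 to 0.06 after quantile normalization, and, when 1 library was left out, Mcm6 (-0.06 to 0.05), Pola1 (-0.30 to 0.17), Tk1 (-0.03 to 0.13) and Orc1 (-0.09 to 0.01).

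With the replicate number as a block, 365 genes were called in all, 0 of the 33, 0 of the 62 and 2 of the 33 G2/M genes lower (1.33% of all genes). Same-numbered libraries did not deviate together (correlations of 0.0939, -0.4285 and -0.3547 for numbers 1, 2 and 3), and no library correlated best with its own number. The highest correlation, 0.557, was between control 3 and Skiv2l-deleted 2, the high libraries for Mpo. With 3 libraries per group and myeloid RNA that differs among them, these correlations cannot decide whether mice were paired. The labels give no shared litter or day, and the numbers were not used as a pairing. Depth is known only as bases, so no counting intervals are given.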

Other observations

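Outside the 33 genes, 2 of the 62 further replication genes had all Skiv2l-deleted libraries over all controls (19.9% of all genes tested), against 30 of the 62 under all controls (12.3% of all genes). The 2 are given here, chosen after their values were seen. Dck, deoxycytidine kinase of the nucleotide salvage route, measured 155.5, 157 and 108 FPKM in control mice against 166, 179 and 191 in Skiv2l-deleted mice (log2 fold change 0.36 ± 0.16, limma adjusted p = 0.221). Dna2, a nuclease and helicase of the lagging strand, measured 21.4, 19.3 and 21.5 FPKM against 22.9, 25.4 and 23.2 (0.19 ± 0.11, limma adjusted p = 0.321). Neither was called.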
